A study of Homo sapiens with 6 samples.

Results

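The S100 family members described here are 10 genes, S100A2, S100A3, S100A4, S100A6, S100A10, S100A11, S100A13, S100A14, S100A16 and S100P, taken by symbol from a count table of 31582 genes. All 10 had a single row in the table, and all 10 were among the 16394 genes that passed the low-count filter. They were measured by sequencing of polyadenylated RNA from MDA-MB-231 cells, an established human breast cancer line without hormone receptors and with a mesenchymal character. The 3 CALR knockdown libraries came from the cells that the labels call MDA-MB-231-shCALR, and the 3 control libraries from MDA-MB-231-NTC, both grown in DMEM with 10% FBS and harvested before they were confluent. CALR encodes calreticulin, the chaperone that binds calcium in the endoplasmic reticulum. Whether libraries within a group were grown separately, or from 1 clone, is not in the labels, so the p-values measure only the spread between these libraries, which may be technical.

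S100 proteins are small calcium sensors with a pair of EF-hand loops. Most form dimers that open on binding calcium and then grip a partner protein, such as an annexin or a myosin heavy chain. Some are also released from cells and act on receptors such as AGER (RAGE) and TLR4. Several members are studied in breast cancer for their part in migration, plasmin generation and invasion, S100A4 foremost. Calreticulin buffers calcium in the endoplasmic reticulum, whereas S100 proteins sense calcium in the cytosol, so the comparison asks how transcripts of cytosolic calcium sensors stood once CALR had been knocked down.

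Library totals lay between 34639090 and 42425310 counts. CALR itself was at 47.5%, 6.39% and 10.6% of the control mean in knockdown libraries 1, 2 and 3, so the knockdown was weakest in library 1 (log2 fold change −2.22 ± 0.64, SE, adjusted p = 0.209 in edgeR's quasi-likelihood test). Of 16394 genes, 0 passed the adjusted threshold of 0.05 in that test, and 2546 (15.5%) had an unadjusted p under 0.05. The line's mesenchymal markers had a summed level of 4780 to 6504 CPM in knockdown and 3664 to 4222 CPM in control libraries. CPM are counts scaled to library size with TMM factors. VIM gave the most, with means of 2809 CPM in knockdown and 1792 CPM in control libraries. SPARC, of the same list, was nearly absent, with means of 0.397 and 0.274 CPM. Luminal markers had a summed level of 481 to 627 CPM in knockdown and 443 to 606 CPM in control libraries, most of it from the keratins KRT8, KRT18 and KRT19. Among them the hormone receptor gene ESR1 stood at means of 0.456 CPM in knockdown and 0.495 CPM in control libraries, and TFF1 had at most 5 counts in any library. Of the 12 blood markers 3 were tested, with a summed level of 5.11 to 7.22 CPM in knockdown and 4.996 to 6.16 CPM in control libraries. PTPRC, the pan-leukocyte marker, had 11 counts at most. In bulk RNA, more cells of a kind and more RNA per cell cannot be told apart.

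Per length of transcript, the family ran from some of the most abundant transcripts of these cells to one that was barely detected. S100A6, or calcyclin, had 1957, 1916 and 1882 FPKM (the authors' values per transcript length and library size) in knockdown libraries 1 to 3, and 1415, 1432 and 1331 FPKM in control libraries. It ranked between place 17 and place 26 among the 31356 genes of the FPKM table in every library. S100A11 followed at 1735 ± 655 FPKM in knockdown and 1171 ± 86.8 FPKM in control libraries (SD, n = 3), and S100A10 at 462 ± 149 and 298 ± 19.3 FPKM. Together S100A6, S100A10 and S100A11 held 90.5% to 93.3% of the family's summed FPKM in knockdown libraries and 90.5% to 92.8% in control libraries. A middle tier was formed by S100A16 (149 ± 26.3 FPKM in knockdown, 86.5 ± 4.15 FPKM in control libraries), S100A4 (98.3 ± 49.0 and 60.0 ± 33.5) and S100A13 (84.6 ± 23.6 and 69.7 ± 9.51).

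At the low end were S100A2 (9.95 ± 0.951 FPKM in knockdown, 7.97 ± 0.0153 FPKM in control libraries), S100A3 (9.43 ± 1.85 and 5.06 ± 2.85) and S100P (6.19 ± 5.97 and 18.7 ± 12.6). S100A14 was barely detected, at 0.307 ± 0.197 FPKM in knockdown and 0.337 ± 0.101 FPKM in control libraries. Ordered by control mean (S100A6, S100A11, S100A10, S100A16, S100A13, S100A4, S100P, S100A2, S100A3, S100A14), neighbours had control ranges that were apart except for S100A13 with S100A4 and S100A2 with S100A3. The wide control range of S100A4 also took in that of S100A16. In knockdown libraries the ranges of S100A6 and S100A11 overlapped, and S100A11 was the more abundant in library 3. The ranges of S100A16, S100A4 and S100A13 overlapped each with the next there, as did those of S100A2, S100A3 and S100P. S100P stood above S100A2 and S100A3 in all 3 control libraries and below both in knockdown libraries 2 and 3.

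**Figure D1:**
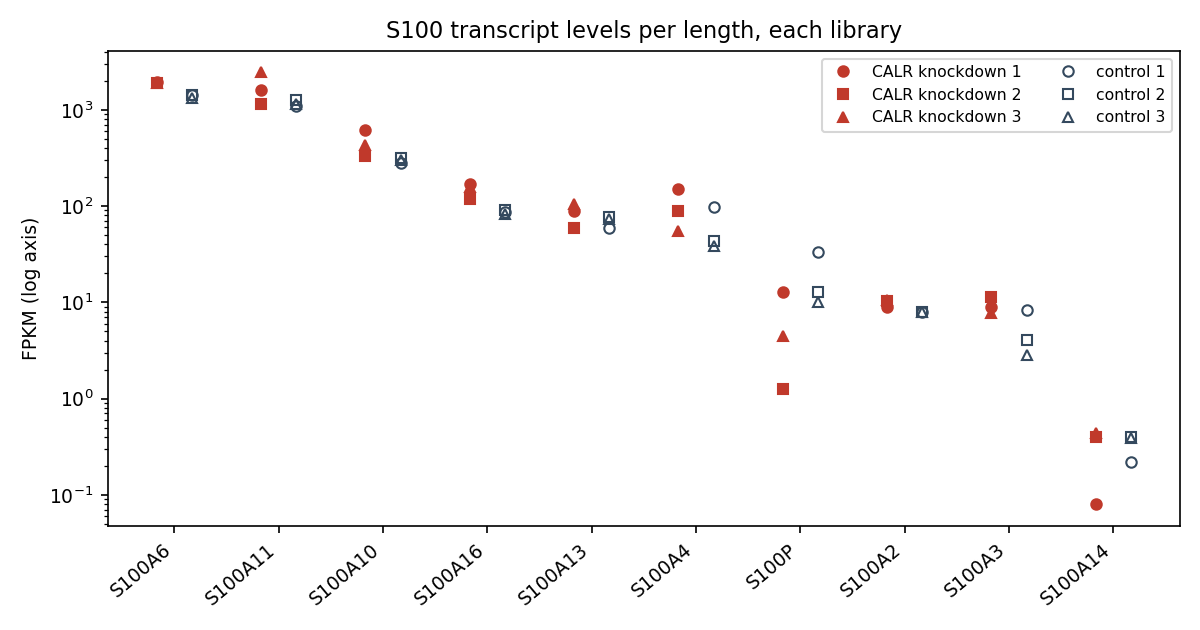
FPKM of the 10 S100 members on a log axis, ordered by the control mean, with filled red marks for the 3 CALR knockdown libraries and open dark marks for the 3 control libraries. S100A6 lies between 1882 and 1957 FPKM in knockdown and between 1331 and 1432 FPKM in control libraries, and S100A14 lies below 0.5 FPKM in all 6.

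Set against control, most of the family had positive log2 fold changes in CALR knockdown libraries, while S100A14 was near zero and S100P negative. Of the 10 members, 8 lay above and 2 below zero in log2 fold change, with a median of 0.65, where the median of all genes tested was −0.00072. Of the 10 members, 0 passed edgeR's adjusted threshold. At an unadjusted p under 0.05, 6 were higher (S100A2, S100A3, S100A6, S100A10, S100A11 and S100A16) and 0 lower, where 8.17% of all genes were higher and 7.36% lower by the same rule. In CPM, all 3 knockdown libraries lay above all 3 controls for 5 members (S100A2, S100A3, S100A6, S100A10 and S100A16), against 11.3% of all genes. They lay below them for 0 members, against 11.2%. In FPKM the groups of S100A3 overlapped. Other tools gave 2 members past the adjusted threshold with DESeq2 (S100A16, adjusted p = 0.0041, and S100A6, adjusted p = 0.017), where 1.77% of all genes were called higher, and 0 with limma-voom. Without knockdown library 2, the library with the least CALR, edgeR called 5 members higher (S100A6, S100A10, S100A11, S100A13 and S100A16), with adjusted p-values of 0.015 to 0.031, where 7.76% of all genes were called higher and 7.75% lower. Without control library 2, 3 members (S100A6, S100A10 and S100A16) were higher at an unadjusted p under 0.05, against 3.86% of all genes.

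Summed over the 10 members, the family held 4461, 3195 and 4856 CPM in knockdown libraries 1 to 3, against 2705, 2726 and 2479 CPM in control libraries. The lowest knockdown library therefore lay above the highest control library, and knockdown library 2 was the nearest to the controls. The sums rest mostly on S100A6 and S100A11. These held 66.0%, 74.5% and 74.9% of the members' counts in knockdown libraries 1 to 3, and 72.2%, 73.3% and 72.9% in control libraries. Of all counts in a library, S100 reads made up 0.419%, 0.336% and 0.427% in knockdown and 0.276%, 0.287% and 0.266% in control libraries. Within libraries, the members' median distance from the control mean of log2 CPM was 0.61, 0.32 and 0.71 in knockdown libraries 1 to 3, and 0.05, 0.04 and −0.08 in control libraries.

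Properties that the members share with many other genes went with positive values too. Their longest annotated transcripts run from 594 to 2184 bases, with a GC content of 52.8% to 60.2%, and 6 of them lie above a mean log2 CPM of 6. Across all tested genes, those within that GC range had a median log2 fold change of 0.17 and 14.1% higher at an unadjusted p under 0.05. Those with a mean log2 CPM of at least 6 had a median of 0.16 and 14.8% higher. The 291 genes inside the members' length and GC ranges and above that level had a median of 0.33, with 25.1% higher and 0.687% lower. With each library's trend with GC content removed, the median of the S100 members was 0.51, and 4 of them were higher at an unadjusted p under 0.05, against 9.8% of all genes. The part of length and of expression level in the family's values was not tested.

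**Figure D2:**
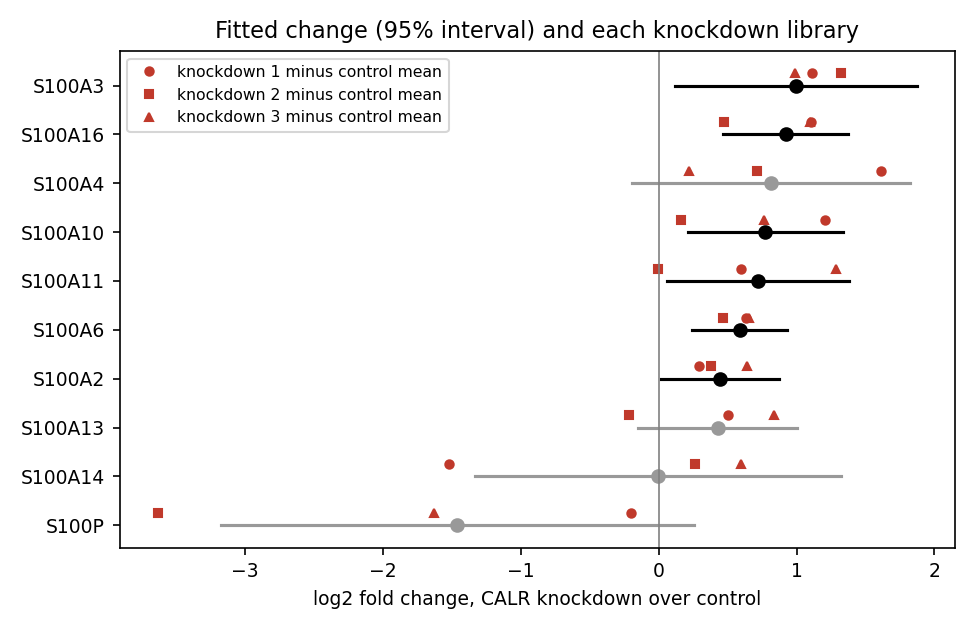
Fitted log2 fold change of each S100 member, CALR knockdown over control, as large dots with 95% intervals (black where the unadjusted edgeR p is under 0.05, grey otherwise). The small red marks give each knockdown library's log2 CPM minus the control mean. The marks of S100A6 lie between 0.47 and 0.66, whereas those of S100P run from −3.63 to −0.20.

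S100A16 gave the smallest p of the family. It is a broadly expressed S100 protein that lies beside S100A14 in the gene cluster. S100A16 was at 307, 198 and 306 CPM in knockdown libraries 1 to 3, against 148, 148 and 133 CPM in control libraries. Every knockdown library lay above every control, with library 2 the closest. The mean was 1.89-fold that of controls, and the log2 fold change was 0.92 ± 0.20 (SE, 95% interval 0.47 to 1.37, unadjusted p = 0.0013, adjusted p = 0.159 in edgeR). Its value stayed between 0.76 and 1.11 in the 16 alternatives tried.

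S100A6, which binds CACYBP and several annexins, varied least of the 10 between knockdown libraries. It was at 1872, 1671 and 1903 CPM in knockdown libraries 1 to 3, against 1264, 1233 and 1128 CPM in control libraries. The libraries of both groups lay close together, with a coefficient of variation of 6.92% in knockdown and 5.91% in control libraries, and the groups were well apart. The log2 fold change was 0.59 ± 0.15 (SE, unadjusted p = 0.0039, adjusted p = 0.192 in edgeR), or 1.503-fold on the means. Of the exon bases of S100A6, 2.37% overlap a gene on the other strand.

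S100A10, also called p11, has lost the ability to bind calcium and stays in its active shape. It pairs with annexin A2 at the plasma membrane, where the complex binds plasminogen and its activator. S100A10 was at 886, 429 and 650 CPM in knockdown libraries 1 to 3, against 368, 404 and 377 CPM in control libraries. The controls agreed closely, while knockdown library 1 was far above knockdown library 2, which was only just above the highest control. The log2 fold change was 0.77 ± 0.25 (SE, unadjusted p = 0.013, adjusted p = 0.225 in edgeR) and was 0.50 without knockdown library 1. ANXA2, the partner of S100A10, was at 1871, 1137 and 1861 CPM in knockdown and 1427, 1464 and 1373 CPM in control libraries. For ANXA2, too, knockdown library 2 was the lowest of the 3, here below all controls, and the log2 fold change was 0.19 ± 0.21 (adjusted p = 0.671 in edgeR).

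The promoters of the abundant members with positive log2 fold changes are shown beside those of S100A4 and S100P, whose libraries were spread widely in both groups. Each is the 250 bases before an annotated transcript start, 5′ to 3′ on the gene's strand, from RefSeq on GRCh38.p14. Capitals mark the TATA box letters TATAAA and the GC box letters GGGCGG, searched on both strands. For S100A16, which has a pair of annotated starts, the upstream one is given.
S100A6, chr1:153535992-153536241, minus strand: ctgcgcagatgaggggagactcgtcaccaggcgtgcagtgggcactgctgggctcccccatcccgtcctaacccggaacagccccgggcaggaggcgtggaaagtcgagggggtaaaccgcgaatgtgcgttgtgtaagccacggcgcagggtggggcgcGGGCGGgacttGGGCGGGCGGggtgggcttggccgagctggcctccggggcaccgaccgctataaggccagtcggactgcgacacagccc
S100A10, chr1:151993860-151994109, minus strand: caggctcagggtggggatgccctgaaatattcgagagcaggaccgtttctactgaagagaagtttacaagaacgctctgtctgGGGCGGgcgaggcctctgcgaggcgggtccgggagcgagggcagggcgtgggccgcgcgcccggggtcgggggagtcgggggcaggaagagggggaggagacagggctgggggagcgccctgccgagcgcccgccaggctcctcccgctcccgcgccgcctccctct
S100A11, chr1:152037005-152037254, minus strand: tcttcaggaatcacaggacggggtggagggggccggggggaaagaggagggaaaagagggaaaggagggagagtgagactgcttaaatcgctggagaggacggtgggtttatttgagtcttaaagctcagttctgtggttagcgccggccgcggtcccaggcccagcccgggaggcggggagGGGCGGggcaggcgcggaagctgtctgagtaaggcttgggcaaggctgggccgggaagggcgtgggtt
S100A16, chr1:153613138-153613387, minus strand: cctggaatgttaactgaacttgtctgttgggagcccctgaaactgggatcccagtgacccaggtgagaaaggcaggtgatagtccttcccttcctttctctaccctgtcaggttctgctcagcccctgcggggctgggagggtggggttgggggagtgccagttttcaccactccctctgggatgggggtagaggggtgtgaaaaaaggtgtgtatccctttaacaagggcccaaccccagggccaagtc
S100A4, chr1:153545807-153546056, minus strand: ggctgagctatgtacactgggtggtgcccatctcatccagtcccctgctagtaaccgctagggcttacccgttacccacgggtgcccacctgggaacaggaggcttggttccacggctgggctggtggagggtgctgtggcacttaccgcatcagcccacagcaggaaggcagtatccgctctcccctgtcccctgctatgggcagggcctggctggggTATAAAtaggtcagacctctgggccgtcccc
S100P, chr4:6693628-6693877, plus strand: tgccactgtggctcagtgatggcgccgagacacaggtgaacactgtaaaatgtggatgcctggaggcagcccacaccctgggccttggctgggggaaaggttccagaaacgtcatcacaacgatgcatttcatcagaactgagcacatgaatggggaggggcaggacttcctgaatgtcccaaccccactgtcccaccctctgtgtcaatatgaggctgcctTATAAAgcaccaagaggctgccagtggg

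The windows of S100A6, S100A10 and S100A11 held 3, 1 and 1 GC boxes and no TATAAA, and 2 of the 3 in S100A6 overlap each other. Those of S100A4 and S100P held no GC box and 1 TATAAA each, which began 31 and 28 bases before the start. The window of S100A16 printed here held neither, while the one before its other start held 1 GC box. All 10 members matched the promoter table, with 14 windows in all. Of these, 3 held TATAAA, against 10.7% of the 35116 windows in the table, and 6 held GGGCGG, against 42.6%. Those with TATAAA were the S100A4 and S100P windows and 1 of S100A13, where it began 29 bases before that start. The AP-1 letters TGANTCA occurred in 2 windows, those of S100A2 and S100A3, against 6.57% of all windows. A match describes these letters only and was not tied to binding.

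In CPM, the rarer members S100A2 and S100A3 also had groups that did not overlap. S100A2, known for its loss in breast tumours, was at 15.7, 16.6 and 20.0 CPM in knockdown libraries 1 to 3, against 13.2, 12.7 and 12.5 CPM in control libraries. Its controls were nearly equal and all 3 knockdown libraries exceeded them, with a log2 fold change of 0.45 ± 0.19 (SE, unadjusted p = 0.043, adjusted p = 0.306 in edgeR). On the log2(FPKM + 1) scale the value for S100A2 was 0.28. S100A3, a zinc-binding member best known from the hair cuticle, was at 9.74, 11.2 and 8.91 CPM in knockdown libraries and 8.33, 3.98 and 2.68 CPM in control libraries. Control library 1 came within 1 CPM of the lowest knockdown library. In FPKM the S100A3 groups overlapped, with 8.27 in control library 1 and 7.81 in knockdown library 3. The log2 fold change was 0.997 ± 0.39 (SE, unadjusted p = 0.030, adjusted p = 0.278 in edgeR), and 1.59 without control library 1.

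S100A11 and S100A13 shared a pattern in which knockdown library 3 was highest and knockdown library 2 lay inside or below the control range. S100A11, which binds annexin A1 and takes part in membrane repair, was at 1074, 708 and 1735 CPM in knockdown libraries 1 to 3, against 689, 765 and 680 CPM in control libraries. Its log2 fold change was 0.72 ± 0.29 (SE, unadjusted p = 0.036, adjusted p = 0.290 in edgeR), and 0.34 without knockdown library 3. S100A13 helps to export FGF1 and interleukin-1 alpha, which lack signal peptides. It was at 136, 82.9 and 172 CPM in knockdown and 84.4, 106 and 100 CPM in control libraries. Its log2 fold change was 0.43 ± 0.25 (SE, unadjusted p = 0.127, adjusted p = 0.431 in edgeR), 0.20 without knockdown library 3, 0.67 without knockdown library 2 and 0.24 on the log2(FPKM + 1) scale. S100A13 shares 24.2% of its exon bases with a gene annotated on the same strand, AL162258.1, and 10.6% with S100A1 on the other strand, so its count is uncertain. For S100A11, 2.20% of the 50-base stretches of its longest transcript also occur in another gene's transcripts, and for the other members apart from S100A13 the share was 0%.

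S100A4 and S100P varied widely, among controls as well as among knockdown libraries. S100A4, the metastasis-associated member that binds the non-muscle myosin heavy chain MYH9, was at 141, 75.7 and 53.9 CPM in knockdown libraries 1 to 3, against 86.0, 36.1 and 31.9 CPM in control libraries. The groups overlapped, since control library 1 exceeded knockdown libraries 2 and 3, and the highest library of a group held 2.62 times the lowest in knockdown and 2.70 times in control. The log2 fold change was 0.82 ± 0.44 (SE, 95% interval −0.19 to 1.82, unadjusted p = 0.0998, adjusted p = 0.401 in edgeR). It was 0.34 without knockdown library 1 and 1.42 without control library 1. Control library 1 was the highest control for S100A3, S100A4 and S100P alike, and by smaller margins for S100A2 and S100A6.

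S100P, a member found in several carcinomas that binds ezrin and AGER, lay on the other side of zero. It was at 18.5, 1.66 and 6.84 CPM in knockdown libraries 1 to 3, against 44.8, 16.5 and 13.02 CPM in control libraries. Knockdown libraries 2 and 3 lay below all controls, while library 1 was inside the control range. Library 1 was the highest in knockdown and in control alike. The spread within knockdown was 11.1-fold between the highest and the lowest library, the widest of the 10 members, and 3.44-fold within control. The log2 fold change of −1.46 ± 0.76 (SE, 95% interval −3.17 to 0.25, unadjusted p = 0.086, adjusted p = 0.380 in edgeR) was −2.54 without knockdown library 1, −0.96 without knockdown library 2 and −0.70 without control library 1. S100PBP, which encodes a binding partner of S100P, had a log2 fold change of −0.04 ± 0.19 (adjusted p = 0.938 in edgeR).

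S100A14 was near the limit of detection, with 4, 21 and 25 counts in knockdown libraries 1 to 3 and 11, 19 and 22 counts in control libraries. Its log2 fold change of −0.0044 ± 0.59 (SE) had a 95% interval of −1.33 to 1.33, so a difference of that size in either direction was not excluded. The lowest count was in knockdown library 1, where S100A4 and S100A10 were highest.

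**Figure D3:**
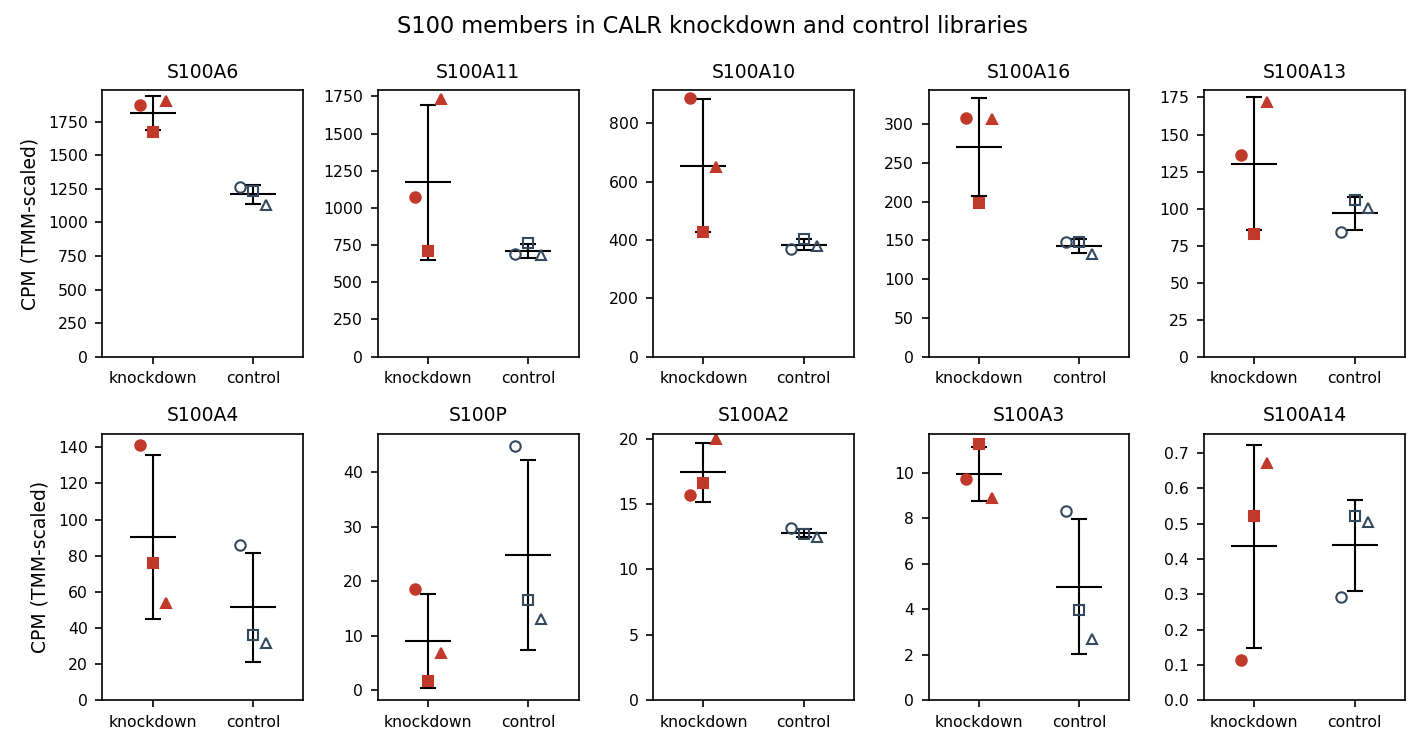
Normalised counts (CPM, linear axes) of each S100 member, ordered by control mean, in CALR knockdown libraries (red, left) and control libraries (open, right); circles, squares and triangles are libraries 1, 2 and 3, and black bars give the mean ± SD (n = 3). S100A16 runs from 198 to 307 CPM in knockdown and from 133 to 148 CPM in control libraries, with no overlap, whereas S100A4 and S100P overlap.

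Along the genome, 9 of the members lie on chromosome 1 in a pair of stretches and S100P lies alone on chromosome 4 (6693069 to 6697170, GENCODE 29 on GRCh38, plus strand). S100A10 (151982915 to 151994390) and S100A11 (152032506 to 152047907) form a stretch of 65.0 kb. The other 7 lie within 96.8 kb, all on the minus strand, in the order S100A6 (153534599 to 153536244), S100A4 (153543613 to 153550136), S100A3 (153547329 to 153549372), S100A2 (153561108 to 153567890), S100A16 (153606886 to 153613145), S100A14 (153614255 to 153616986) and S100A13 (153618787 to 153631360). S100A3 lies wholly inside the span of S100A4, although their exons share 0% of bases. Log2 fold changes in that order were 0.59, 0.82, 0.997, 0.45, 0.92, −0.0044 and 0.43, so the nearly silent S100A14 sat between members at 0.92 and 0.43. S100A5, an S100 gene that is not among the 10, lies between S100A6 and S100A4. It was at 1.77, 2.41 and 2.60 CPM in knockdown and 0.979, 1.59 and 1.40 CPM in control libraries, all 3 knockdown libraries above the controls (log2 fold change 0.77 ± 0.32, SE, adjusted p = 0.299 in edgeR). In FPKM, S100A5 was equal in knockdown library 1 and control library 2, at 2 FPKM.

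Of genes outside the S100 family within 100 kb of the larger stretch, 6 were tested. Their log2 fold changes ran from 0.10 to 0.56, with a median of 0.26. All 6 lay at the S100A13 end of the stretch. The lowest, RP1-178F15.5 (0.10 ± 0.55), overlaps the span of S100A13 on the same strand. At an unadjusted p under 0.05, where 8.17% of all genes were higher, 1 of the 6 was higher. That gene was SNAPIN (0.56 ± 0.19, adjusted p = 0.230 in edgeR), which takes part in vesicle fusion and was named after its value was seen. Beside S100A10 and S100A11 the single tested neighbour was THEM4, at −0.45 ± 0.19 (adjusted p = 0.314 in edgeR). All 3 of its knockdown libraries lay below the controls, as in 11.2% of all genes.

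**Figure D4:**
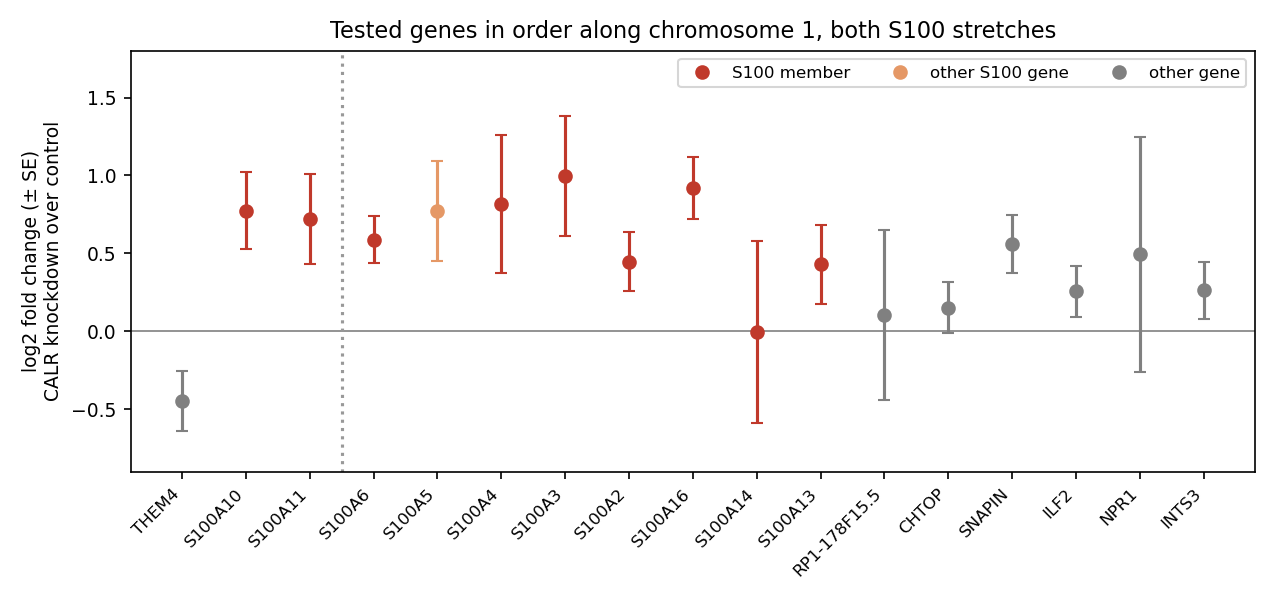
Log2 fold change ± SE, CALR knockdown over control, of every tested gene in the stretches of chromosome 1 that hold S100 members, in gene order with even spacing. A dotted line parts the stretch of S100A10 and S100A11 (left) from the larger one (right). S100 genes other than S100A14 lie between 0.43 and 0.997, and neighbouring genes between −0.45 and 0.56.

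Genes of proteins that S100 members bind were spread around zero. Of 30 listed symbols of partners inside the cell 26 were tested, 12 above and 14 below zero in log2 fold change, with a median of −0.03. The number past edgeR's adjusted threshold was 0, and at an unadjusted p under 0.05 it was 4 higher and 0 lower, where 8.17% of all genes were higher and 7.36% lower. These were annexin A6 (ANXA6, 0.85 ± 0.26), lamin A/C (LMNA, 0.63 ± 0.20), annexin A11 (ANXA11, 0.48 ± 0.16), which binds S100A6, and the protein phosphatase PPP5C (0.45 ± 0.17), with adjusted p-values between 0.219 and 0.266. ANXA11, LMNA and PPP5C had knockdown libraries all above the controls, as 11.3% of all genes did, and ANXA6 was at 477, 270 and 485 CPM in knockdown against 289, 208 and 185 CPM in control libraries. Well-known partners had small values: ANXA1 of S100A11 at −0.12 ± 0.16, CACYBP of S100A6 at −0.12 ± 0.16 and EZR of S100P at 0.15 ± 0.18. MYH9, the partner of S100A4, was at 0.32 ± 0.25.

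Receptors and extracellular partners went both ways. Of 16 listed 13 were tested, 10 positive and 3 negative with a median of 0.36. Again 0 passed the adjusted threshold, and the unadjusted p was under 0.05 for 3 higher and 2 lower genes, where the shares of all genes were 8.17% and 7.36%. PLAU, the urokinase that turns plasminogen into plasmin, was at 347, 183 and 290 CPM in knockdown libraries 1 to 3 against 138, 91.2 and 89.0 CPM in control libraries (log2 fold change 1.36 ± 0.27, SE, adjusted p = 0.149 in edgeR). In PLAU, as in S100A10, library 1 was the highest and library 2 the lowest of the knockdown libraries. S100A16 and VIM had the same order, so it was not particular to PLAU and S100A10. ENO1, a glycolytic enzyme that also binds plasminogen at the cell surface, was at 0.62 ± 0.22 with groups apart. FGF1, a cargo of S100A13, was at 0.66 ± 0.28 with overlapping groups. The gene of its other named cargo, interleukin-1 alpha (IL1A), was at 0.40 ± 0.54, also with overlapping groups.

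The receptors on the other side were EGFR and TLR4. EGFR, the epidermal growth factor receptor, was at 99.5, 128 and 109 CPM in knockdown and 220, 180 and 202 CPM in control libraries, all 3 below the controls (−0.84 ± 0.17, adjusted p = 0.149 in edgeR). TLR4, a receptor for S100A8 and S100A9, was at 3.94, 7.77 and 13.6 CPM in knockdown and 23.4, 14.4 and 15.9 CPM in control libraries (−1.08 ± 0.41, adjusted p = 0.272 in edgeR). The receptor AGER averaged 1.15 CPM in knockdown and 1.28 CPM in control libraries.

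**Figure D5:**
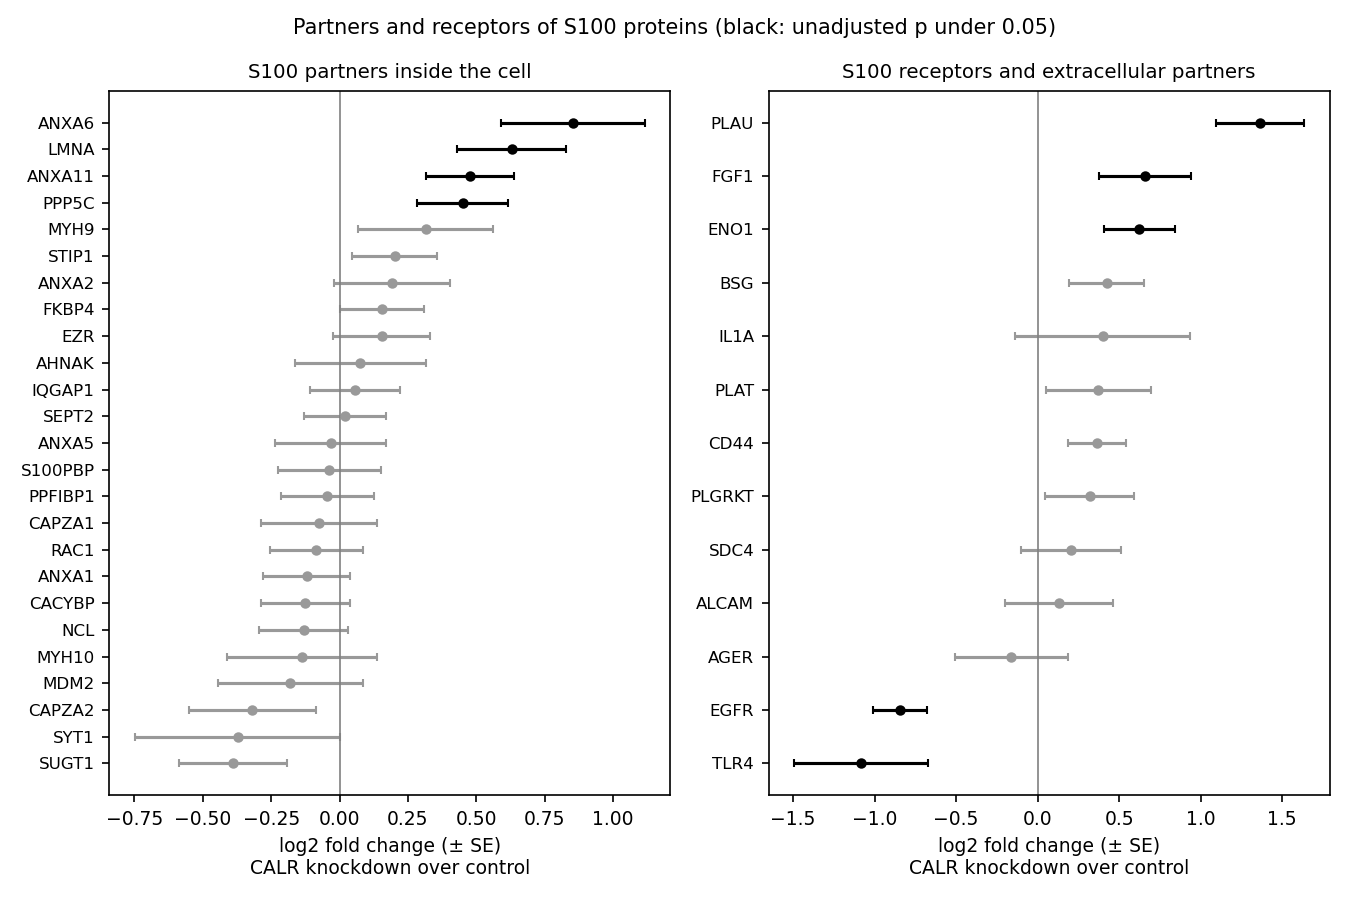
Log2 fold change ± SE, CALR knockdown over control, of partners of S100 proteins inside the cell (left, 1 of the 26 tested not drawn) and 13 receptors and extracellular partners (right), black where the unadjusted edgeR p is under 0.05. Partners inside the cell gather around zero with ANXA6 (0.85) at the top, and the right panel runs from TLR4 (−1.08) to PLAU (1.36).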

How the data were processed

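RNA of 3 CALR knockdown and 3 control libraries of MDA-MB-231 cells was sequenced with a strand-keeping kit, per the labels' protocols. FastQC 0.9.5, TopHat2 and the build GRCh38 are named in the submitters' processing notes, whereas for the counting program and its strand setting the sources used here give no name. The authors deposited whole read counts per gene and FPKM values rounded to 2 decimals. Library totals were 34639090 to 42425310 counts. Genes passing edgeR's filterByExpr were compared after TMM scaling in edgeR 4.0.16 (R 4.3.3), by its quasi-likelihood test. The Benjamini-Hochberg adjustment ran over all 16394 genes, and calls needed an adjusted p under 0.05. A standard error is the size of the log2 fold change divided by the root of F. Log2 CPM has a prior count of 2. Single members' exact permutation tests cannot give p below 0.1 with 3 against 3 and were not used for calls. FPKM served for levels between genes. Alternatives were DESeq2 1.42.0 and its size factors, limma-voom (limma 3.58.1), library size alone, other filters, limma on log2(FPKM + 1) and log2(FPKM + 0.1), a replicate block, each library left out, and, added after seeing the data, removal of each library's GC trend. The members, the gene lists and the tests were chosen with earlier results of these data known. The text names the 10 members, CALR, and listed partners at an unadjusted p under 0.05 with groups apart. Other partners and neighbouring genes were named after their values were seen, and 1 listed partner, although counted, is not reported here by name. Of the table's genes, 30871 matched GENCODE 29 without the version number, which gave positions and overlaps.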

Additional observations from a re-analysis of the deposited data

How the results depend on the processing

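Every S100 member except S100A14 kept its direction in all alternatives tried. S100A14, at −0.0044 in the reported fit, turned to 0.0046 with DESeq2's size factors, 0.0096 without the low-count filter and 0.00041 in DESeq2, and ran from −0.42 to 0.44 with 1 library left out. The number of S100 members past the adjusted threshold was 0 in the reported fit, 6 without the low-count filter (5 higher and S100P lower, against 1.36% and 1.76% of all genes), 2 with DESeq2 and 0 to 5 with 1 library left out. Those at an unadjusted p under 0.05 were 6 in the reported fit and 3 to 6 with 1 library left out. Among all genes, the share higher by this rule ran from 2.87% without control library 3 to 17.9% without knockdown library 2. Leaving out knockdown library 1, or control library 3, gave 3 members on the higher side and S100P on the lower. Scaling by library size alone kept 4, all of them higher, where 4.45% of all genes were. Over all genes the count past the threshold was 0, against 988 without the filter, 530 with DESeq2 (290 higher, 240 lower) and 0 to 2604 with 1 library left out, the highest without knockdown library 2 and 138 without knockdown library 3. The cause was not tested. The members' median log2 fold change was 0.46 to 0.79 with 1 library left out and 0.50 with library size alone, which moved the median of all genes to −0.13.

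The replicate numbers showed no clear pairing of the libraries. Deviations from the group means correlated at 0.195, −0.119 and −0.217 for numbers 1, 2 and 3, and only knockdown library 1 correlated best with its own number. Deviations within a group of 3 constrain each other, so these correlations cannot decide whether the libraries were paired. With the replicate block 0 genes and 0 S100 members passed, and the median of the members was 0.61. Under the block 7 members, 6 of them higher and 1 lower, had an unadjusted p under 0.05, against 5.98% and 7.5% of all genes. S100A4 (0.85 ± 0.20, unadjusted p = 0.0021) and S100P (−1.77 ± 0.43, unadjusted p = 0.0022) were among the 7 but not among the 6 of the reported fit, and S100A2 (unadjusted p = 0.101) was not among the 7.

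S100A14 rested on 4 to 25 counts per library, and the part of depth in its wide interval was not tested.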

Other observations

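Most of the rest of the S100 family was silent in these cells. Of 11 other listed S100 genes 8 were in the table and 2, S100A5 and S100Z, were tested. S100A1 had at most 6 counts, S100A9, a subunit of calprotectin in myeloid cells, at most 2, and S100A7A, S100A7L2, S100B and S100G at most 1 in any library. S100Z was at means of 0.276 CPM in knockdown and 0.426 CPM in control libraries (log2 fold change −0.60 ± 0.55, adjusted p = 0.598 in edgeR). Of the 7 epidermal genes with an S100 domain fused to repeats, 1 was tested, the filaggrin gene FLG, with a log2 fold change of 0.17 ± 0.43.

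Of the 8 mesenchymal markers 7 lay above and 1 below zero, with a median log2 fold change of 0.44. Of them 3 were higher and 0 lower by the unadjusted threshold, where 8.17% of all genes were higher. In 2 of the 8, VIM (0.65 ± 0.16) and MSN (0.57 ± 0.16), all 3 knockdown libraries lay above the controls, as they did in 11.3% of all genes. The caveolin gene CAV2 was at −0.43 ± 0.21 and the fibronectin gene FN1 at 0.26 ± 0.42. CSF1R, a receptor of the monocyte lineage, was at means of 1.15 CPM in knockdown and 0.229 CPM in control libraries (2.34 ± 0.63, adjusted p = 0.1997 in edgeR). The other 2 tested blood markers, CD14 (−0.41 ± 0.47) and CD68 (−0.08 ± 0.26), lay below zero. Of the 12 blood markers, 9 were not tested for low counts or absence from the table. Fibroblast and endothelial markers had a summed level of 13.2 to 20.7 CPM in knockdown and 11.7 to 20.9 CPM in control libraries. The part of other cells in the S100 values was not tested.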
